A study of Mus musculus with 8 samples.

Results

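The 40 genes described here are the members of a cell-cycle list that was looked up by symbol in the 4 single-cell gene tables of a mouse study of meningeal regulatory T cells and the hippocampus. All 40 were found among the 55487 gene rows that each table lists. They divide into 17 genes of DNA synthesis (S phase) and 23 genes of the G2 phase and mitosis (G2/M). Detection was counted in unique molecular identifiers (UMIs), which mark single captured RNA molecules, and a cell with UMIs of 3 or more of the 40 genes was counted as a cell with cell-cycle transcripts.

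Meningeal T cells were sorted as CD45+ CD3+ CD4+ cells in 2 untreated replicates of different genotype, Foxp3-GFP for the first and B6.WT for the second, so replicate and genotype cannot be told apart. Hippocampal cells were sorted as CD45- Thy1- cells from Foxp3-DTR- littermates and Foxp3-DTR+ mice, with 1 library per genotype and 2 mice pooled in each. Both hippocampal groups received diphtheria toxin, which kills cells that carry its receptor. In the DTR+ animals the receptor is driven by Foxp3, the transcription factor of regulatory T (Treg) cells, and the CD45- sort leaves out immune cells, so the depletion was not measured in these libraries. The labels give no age or sex, and the label of neurons and glia met few neurons, since 0.0729% and 0.0703% of the cells of the 2 libraries held 3 or more of 6 neuron markers.

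In S phase the hexameric MCM helicase is loaded at replication origins, opens the duplex and travels with the sliding clamp PCNA, while ribonucleotide reductase and thymidylate synthase supply nucleotides. In G2 and mitosis, cyclin A2 and the B cyclins activate CDK1, kinases of the Aurora, Polo and BUB families control the spindle, and the anaphase-promoting complex ends mitosis. Resting T cells and astrocytes hold little of this RNA, while activated T cells, oligodendrocyte precursors and neural progenitors of the dentate gyrus divide. S-phase genes are classic targets of E2F factors, and many G2/M genes carry a CHR element (cell cycle genes homology region) beside CCAAT boxes, which bind NF-Y.

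Promoter stretches of 6 members are shown because they carry the motifs that were counted over the members. RefSeq promoters (build GRCm38.p6, 250 bases before the annotated start) matched 33 of the 40 members. Every stretch reads 5′ to 3′ on the gene's strand and ends before the gene's first base. For the S-phase helicase subunits Mcm5 and Mcm6, capitals mark matches to an E2F motif, searched as TTTCCCGC, TTTCGCGC, TTTGCCGC or TTTGGCGC on both strands, and the long run of capitals in Mcm6 holds 2 overlapping matches.
Mcm5, chr8:75109359-75109467, plus strand: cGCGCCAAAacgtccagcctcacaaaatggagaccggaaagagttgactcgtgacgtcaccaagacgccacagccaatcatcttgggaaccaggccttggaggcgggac
Mcm6, chr1:128359706-128359855, minus strand: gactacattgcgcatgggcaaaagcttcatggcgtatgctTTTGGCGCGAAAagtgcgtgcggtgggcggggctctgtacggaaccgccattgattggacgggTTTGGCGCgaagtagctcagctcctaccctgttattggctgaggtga

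For 4 G2/M genes, capitals mark the CHR motif TTTGAA and the CCAAT motif, both searched on both strands, so that TTCAAA and ATTGG are the same motifs on the other strand. The E2F match of Cdk1 is not in capitals. Mki67 encodes the proliferation antigen Ki-67, Top2a topoisomerase II alpha, Cdk1 the mitotic kinase and Cdc20 an activator of the anaphase-promoting complex.
Mki67, chr7:135716451-135716529, minus strand: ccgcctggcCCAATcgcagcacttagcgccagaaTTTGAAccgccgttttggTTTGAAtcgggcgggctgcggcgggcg
Top2a, chr11:99024200-99024339, minus strand: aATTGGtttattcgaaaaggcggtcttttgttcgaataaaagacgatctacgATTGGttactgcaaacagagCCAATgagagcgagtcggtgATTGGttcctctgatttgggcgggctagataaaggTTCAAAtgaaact
Cdk1, chr10:69352939-69353062, minus strand: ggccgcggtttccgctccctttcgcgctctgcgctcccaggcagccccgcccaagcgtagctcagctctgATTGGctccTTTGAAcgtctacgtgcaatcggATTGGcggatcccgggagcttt
Cdc20, chr4:118437353-118437493, minus strand: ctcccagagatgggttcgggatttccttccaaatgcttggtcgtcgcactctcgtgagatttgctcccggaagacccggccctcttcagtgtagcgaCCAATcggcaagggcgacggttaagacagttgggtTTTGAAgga

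An E2F match lay in the 250-base window of 4 of 14 S genes (28.6%; Cdc6, Mcm5, Mcm6 and Mcm7), of 1 of 19 G2/M genes (5.26%; Cdk1) and of 1.91% of all 27025 promoters. A CHR match lay in 7 of 19 G2/M genes (36.8%; Ccnb2, Cdc20, Cdk1, Kif11, Mki67, Top2a and Ube2c), in 2 of 14 S genes (Cdc45 and Mcm2) and in 16.3% of all promoters. CCAAT was common to both groups, in 16 of 19 G2/M genes and 11 of 14 S genes against 34.5% of all promoters. The differences between the groups were not tested, and a match describes these letters in this window and is no evidence of binding.

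The 2 meningeal tables held 13402 and 33575 barcodes with 60890248 and 68830571 UMIs, shared with other hashtagged samples, and 1933 and 4358 cells of these 2 samples were analysed. The DTR-negative and DTR-positive hippocampal tables held 8220 and 6548 barcodes with 53484704 and 35814655 UMIs, from which 6863 and 5691 cells were kept. Median depth was 3104 and 1726 UMIs per cell in meningeal replicates 1 and 2 and 6003 and 4509 UMIs in the DTR-negative and DTR-positive libraries, and 7 barcodes were shared by the meningeal libraries and 15 by the hippocampal ones. The doublet caller marked 0.356% and 0 meningeal cells and so has not worked there, and 3.41% and 2.701% of the hippocampal cells, which were removed.

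In the meninges, 324 of 1933 cells of replicate 1 (16.8%; exact binomial 95% interval 15.1 to 18.5) and 496 of 4358 cells of replicate 2 (11.4%; 10.5 to 12.4) held 3 or more of the 40 genes, a mean of 14.1% ± 3.80 (SD, n = 2). Such intervals cover counting error only. Mitotic RNA was less common: 2.74% and 2.96% of the cells held 3 or more of the 23 G2/M genes, a mean of 2.85% ± 0.154 (SD, n = 2). The share of cells with any 3 members differed between the replicates beyond counting error, and the G2/M share by less than it.

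T-cell states were set by marker genes outside the list. A Foxp3 UMI made a cell Treg-like, and a cell without one could be Treg-like by its Treg markers. Treg-like cells held 3 or more members in 87 of 363 cells of replicate 1 (24.0%; 19.7 to 28.7) and in 128 of 925 cells of replicate 2 (13.8%; 11.7 to 16.2), a mean of 18.9% ± 7.16 (SD, n = 2). Th1-like cells, which carry genes of interferon-gamma producing helper cells, gave 16.2% (120 of 743; 13.6 to 19.0) and 10.3% (173 of 1674; 8.92 to 11.9), a mean of 13.2% ± 4.11. Naive-like cells, set by genes such as Ccr7, a chemokine receptor of resting T cells, gave 6.82% (12 of 176; 3.57 to 11.6) and 7.78% (28 of 360; 5.23 to 11.05), a mean of 7.30% ± 0.679. Naive-like cells were the lowest of these states in both replicates, and within each replicate their interval did not reach that of Treg-like cells.

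NK receptor-positive CD4 T cells had the highest share in both replicates, 29.3% (22 of 75) and 20.3% (63 of 311). Tfh-like cells gave 27.0% (10 of 37) and 10.8% (7 of 65) and interferon-stimulated cells 21.5% (34 of 158) and 14.2% (15 of 106). Cells that met no state gave 10.2% (39 of 381) and 8.94% (82 of 917). The order of the states between naive-like and NK receptor-positive cells was thus not the same in both replicates, and neighbouring states overlapped in their intervals.

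Of Treg-like, Th1-like and naive-like cells, the share with mitotic genes was highest in Treg-like and lowest in naive-like cells in both replicates. At least 3 G2/M genes were detected in 15 Treg-like cells of replicate 1 (4.13%; 2.33 to 6.72) and 36 of replicate 2 (3.89%; 2.74 to 5.35), and in 2.42% and 2.51% of Th1-like cells. In naive-like cells they were detected in 0 of 176 cells, which allows a share of up to 1.70%, and in 2 of 360 (0.556%). The difference between Treg-like and Th1-like cells was not tested and rests on few cells. Equal depth and a stricter hashtag lead, used below for the whole list, are not given for these G2/M shares. Treg-like cells made up 28.3% and 27.9% of all cells with 3 or more G2/M genes, against 18.8% and 21.2% of all cells, and Th1-like cells made up 34.0% and 32.6% against 38.4% in each replicate.

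**Figure D1:**
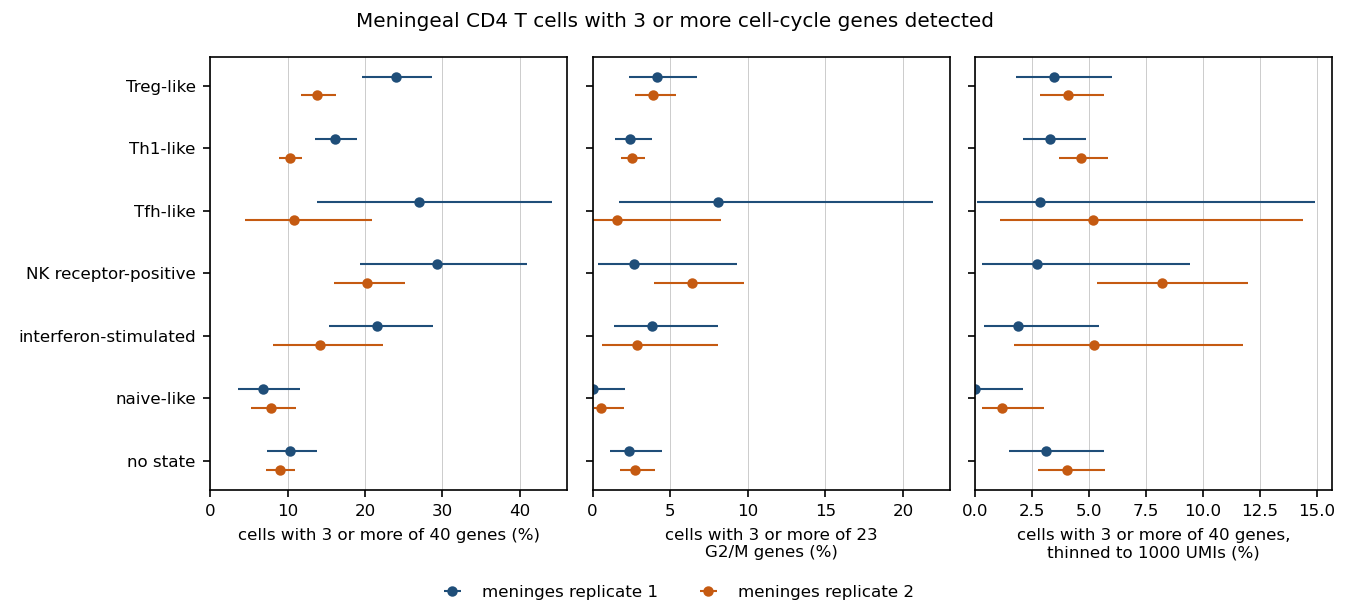
Share of meningeal CD4 T cells (%) with 3 or more of the 40 genes (left), with 3 or more of the 23 G2/M genes (middle) and with 3 or more of the 40 genes after thinning each cell to 1000 UMIs (right), by T-cell state. Points are replicates and bars exact binomial 95% intervals. Treg-like cells sit at 24.0% and 13.8% in the left panel and naive-like cells at 6.82% and 7.78%, and at 1000 UMIs per cell the naive-like points are 0 and 1.20%.

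Depth differed more between the replicates than between these states. Median UMIs per cell were 3696 and 1793 in Treg-like cells, 3022 and 1744 in Th1-like cells and 3172 and 1777 in naive-like cells. With every cell thinned to 1000 UMIs, which left out the shallower cells, the share with 3 or more members was 2.84% (52 of 1834) and 4.42% (173 of 3917) of all cells, so that replicate 2 now lay above replicate 1. Thinned Treg-like cells gave 3.48% and 4.09%, Th1-like cells 3.29% and 4.67%, and naive-like cells 0 of 173, which allows up to 1.73%, and 1.20% (4 of 334). Naive-like cells thus stayed lowest at equal depth, and the order of Treg-like and Th1-like cells turned in replicate 2.

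Cells whose barcodes may hold a second cell also had more members, and they were deeper. Cells whose own hashtag led the next by only 2 to 5 times held 3 or more members in 32.3% (91 of 282) and 16.9% (165 of 974), against 13.3% (202 of 1515) and 9.39% (244 of 2599) at a lead of 20 times or more. At that stricter lead Treg-like cells gave 12.7% and 9.75%, Th1-like cells 14.95% and 8.81% and naive-like cells 6.29% and 5.38%. Cells with 2 or more T-cell receptor beta chains gave 32.3% (61 of 189) and 20% (74 of 370), against 15.05% and 11.6% with 1 chain. Median UMIs were 5207.5 and 2460.5 at a lead of 2 to 5 times, against 2888 and 1581 at 20 times or more. They were 5339 and 3043.5 with 2 or more chains, against 3054 and 1789 with 1 chain. The parts of depth and of a second cell in these shares were not tested. The excess of Treg-like over Th1-like cells in replicate 1 was not seen at the stricter lead, and the part of doublets in it was not tested.

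The members most often detected in these cells were S genes and Cenpa, the centromere histone. Among Treg-like cells with 3 or more members, a UMI of Pcna, the sliding clamp, was found in 58.6% and 32.8%, of Mcm6 in 44.8% and 45.3%, of Cenpa in 40.2% and 46.9% and of Mcm4 in 34.5% and 39.1%. Among such naive-like cells Pcna was found in 75.0% and 35.7% and Mcm4 in 33.3% and 53.6%. Summed over cells, S genes gave 460 and 601 CPM (UMI counts scaled to a common total) and G2/M genes 484 and 650 CPM in Treg-like cells, a ratio of S to G2/M of 0.952 and 0.925. The ratio was 1.26 and 1.24 in Th1-like cells and 2.20 and 2.84 in naive-like cells, so the 3 states did not overlap. NK receptor-positive cells had 4.17 and 0.790, with G2/M sums of 120 and 1185 CPM, and so were not alike in the 2 replicates.

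Clones were set by the T-cell receptor beta chain alone, by its V gene, J gene and CDR3 nucleotide sequence. Only cells with exactly 1 productive beta chain were used. Of such cells with 3 or more members, 19.2% (41 of 214) and 20.6% (62 of 301) shared the chain with another cell. Of those with fewer members, 20.2% (244 of 1208) and 15.3% (351 of 2296) did. Of cells with 3 or more G2/M genes, 22.9% (8 of 35; 10.4 to 40.1) and 31.8% (28 of 88; 22.3 to 42.6) did. In replicate 2 that interval lay above the one of cells with fewer than 3 members (13.8 to 16.8). In replicate 1 the 2 intervals overlapped (18.0 to 22.6 for cells with fewer members). The part of T-cell state and depth in this was not tested. For the whole list the share was thus higher in replicate 2 and not in replicate 1. The whole-list intervals of replicate 2 overlapped (16.2 to 25.6 against 13.8 to 16.8). Within its states the shares were 21.8% against 20.5% in Th1-like cells and 18.8% against 12.9% in Treg-like cells, also with overlapping intervals.

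To compare single genes, counts were summed per state and replicate and tested with edgeR's quasi-likelihood test with the replicate as a block, over 8688 genes that passed its filter on low counts. With 2 libraries, the p-values measure only the spread between these libraries. Of the 40 members 34 were tested, and Ccne1, Ccne2, Bub1, Bub1b, Cdc6 and Cdc45 were not. Those 6 had at most 6.001 CPM in Treg-like and 6.90 CPM in naive-like cells, both values being those of Cdc45, the helicase subunit loaded when origins fire. Against naive-like cells, 16 members rose in Treg-like cells and 0 fell (0 also at an unadjusted p under 0.05 and by DESeq2), where 3.86% of all genes tested rose. These were 6 of 13 tested S genes and 10 of 21 tested G2/M genes. The median log2 difference was 2.08 over the tested members (1.76 with the genes at 0 set to their bound), 1.21 over S and 2.75 over G2/M genes (2.60 with bounds), against -0.01 over all genes.

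Among genes of mitotic exit and the chromosome passenger complex, Birc5 (survivin) had 39.6 and 56.1 CPM in Treg-like cells of replicates 1 and 2 and 0 and 5.52 CPM in naive-like cells, a log2 difference of 3.83 ± 0.59 (SE, edgeR adjusted p = 0.000148). Aurkb, the kinase of that complex, had 10.8 and 19.2 against 0 and 1.38 CPM. That rested on 1 UMI in naive-like cells, so its ratio is wide, with a pooled log2 of 4.42 (95% counting interval 1.89 to 9.75). Ube2c, the ubiquitin-conjugating enzyme of the anaphase-promoting complex, had 56.4 and 75.2 against 6.13 and 2.76 CPM, a log2 difference of 3.74 ± 0.66 (edgeR adjusted p = 0.000661). Every Treg-like value of these 3 genes lay above every naive-like value.

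Chromosome and spindle genes followed the same direction. Top2a had 56.4 and 64.3 CPM in Treg-like and 6.13 and 11.05 CPM in naive-like cells (log2 2.60 ± 0.44, edgeR adjusted p = 0.000422), and Mki67 34.2 and 65.2 against 6.13 and 9.67 CPM (2.46 ± 0.57; 0.00731). Cenpf, a kinetochore protein, had 21.0 and 25.5 against 1.53 and 1.38 CPM, and Hmmr, a spindle-associated protein, 12.6 and 16.0 against 0 and 1.38 CPM, with edgeR adjusted p of 0.0145 and 0.0125. With 1 or 2 UMIs in the naive-like cells, their pooled log2 ratios were 4.02 (2.13 to 7.09) for Cenpf and 4.32 (1.78 to 9.65) for Hmmr. Nusap1, which bundles spindle microtubules, had 20.4 and 19.6 against 3.06 and 1.38 CPM (edgeR adjusted p = 0.0206). The groups did not overlap for any of these 5 genes.

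Of the CDK1 module, Cdk1 itself had 18.0 and 20.1 CPM against 1.53 and 2.76 CPM (log2 2.88 ± 0.77, edgeR adjusted p = 0.0206) and Ccna2, cyclin A2, 18.6 and 32.4 against 1.53 and 8.28 CPM (2.15 ± 0.60; 0.0279). The B cyclins did not pass, with log2 differences of 3.05 (edgeR adjusted p = 0.0647) for Ccnb2 and 0.83 (0.674) for Ccnb1. Nor did Cdc20 (2.63; 0.0814), Tpx2, which activates Aurora A (2.23; 0.0555), Cenpe, a kinetochore motor (2.75; 0.164), Plk1, the Polo kinase (1.77; 0.283), Kif11, the spindle motor Eg5 (1.75; 0.231), or Tacc3, a spindle microtubule protein (1.65; 0.104). Aurka, the kinase Aurora A, and Kif20a, a kinesin of cytokinesis, had no UMI in naive-like cells, and Treg-like cells had at least 2.97-fold and 2.50-fold more (edgeR adjusted p = 0.147 and 0.129). The spindle checkpoint kinase gene Bub1b was also at 0 in naive-like cells, at least 2.02-fold below Treg-like cells, and was not tested.

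Among S genes, those of nucleotide synthesis and the clamp's partner Pclaf rose in Treg-like cells. Pclaf, the PCNA-associated factor, had 57.6 and 43.3 CPM against 3.06 and 12.4 CPM in naive-like cells (log2 2.44 ± 0.51, edgeR adjusted p = 0.00284). Rrm2, the regulated subunit of ribonucleotide reductase, had 22.2 and 37.8 against 6.13 and 6.90 CPM (2.005 ± 0.48; 0.00996), with smaller differences for its partner Rrm1 (1.21; 0.0166) and for Tyms, thymidylate synthase (1.37; 0.0297). Both groups were clear of each other for these 4 genes.

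Of the 6 helicase subunits 2 passed. Mcm5 (log2 1.21 ± 0.32, edgeR adjusted p = 0.0172) and Mcm6 (0.83 ± 0.21; 0.0146) rose, while Mcm2 (1.27; 0.115), Mcm3 (0.52; 0.393) and Mcm7 (0.13; 0.895) did not pass, and differences between the subunits were not tested. Mcm4 had 36.0 and 62.5 CPM in Treg-like and 24.5 and 80.1 CPM in naive-like cells, a log2 difference of -0.26 (edgeR adjusted p = 0.652), and these groups overlapped. Pcna had 84.0 and 57.9 against 59.8 and 49.7 CPM (0.15; 0.81). Gins2, a subunit of the replicative helicase complex, gave 0.88 (edgeR adjusted p = 0.616) and Uhrf1, which maintains DNA methylation at the fork, 1.28 (0.217). Pcna and Mcm4, each the most often detected member of naive-like cells with 3 or more members in 1 replicate, thus did not pass the test.

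**Figure D2:**
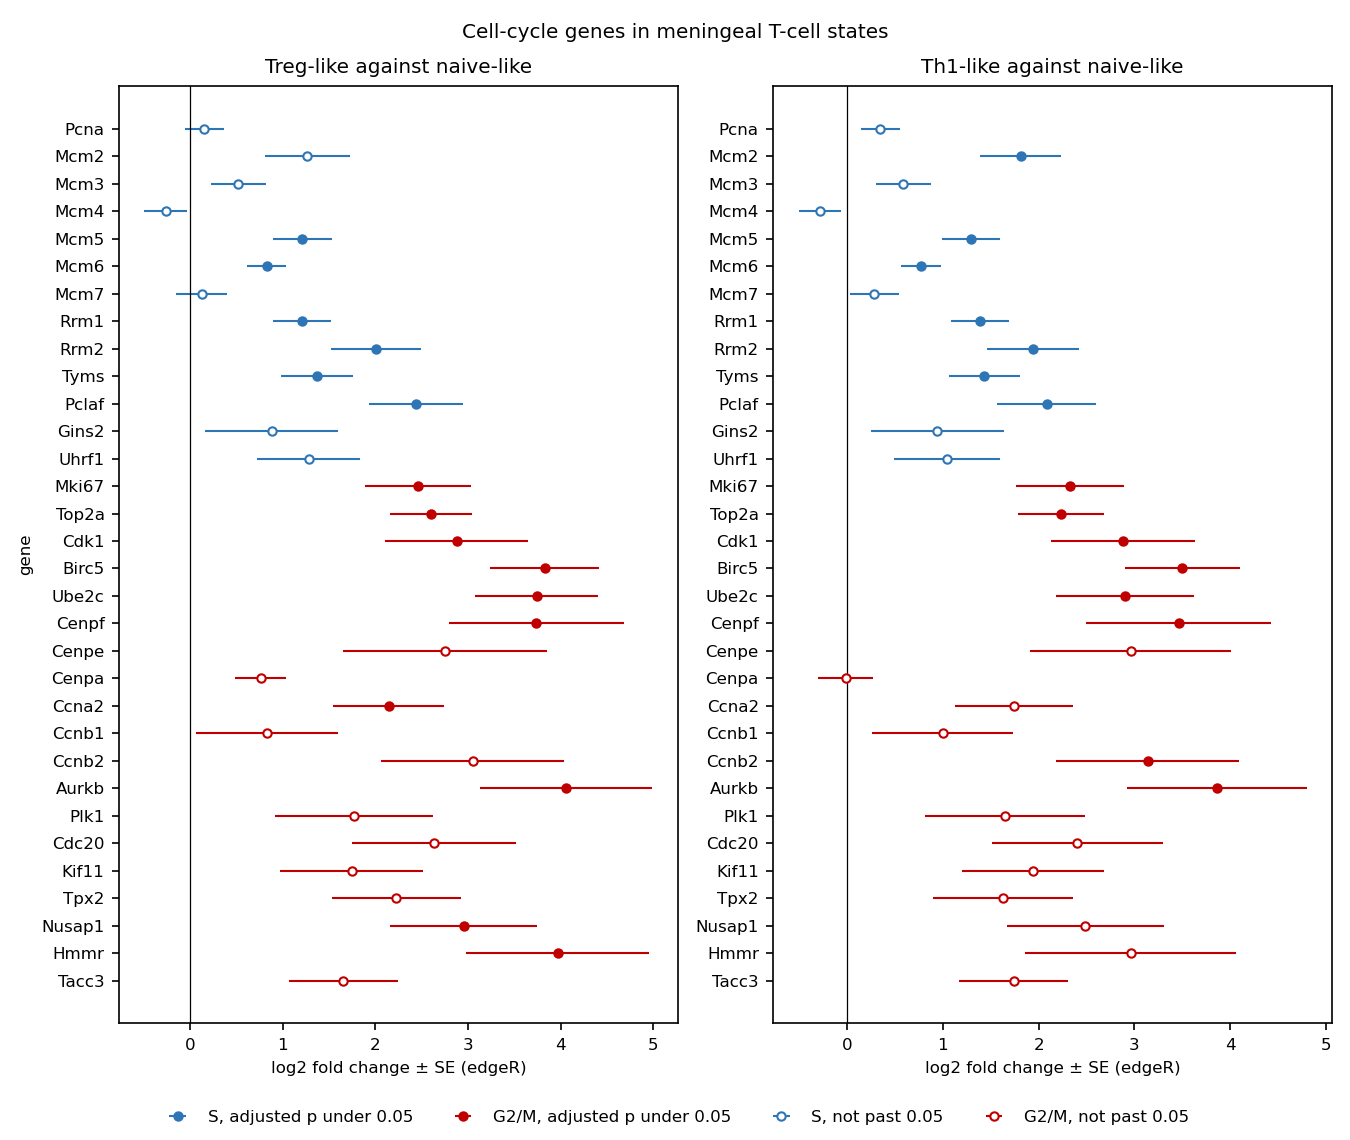
Log2 fold change (edgeR, points) with its SE (bars) of the tested members in Treg-like (left) and Th1-like (right) against naive-like cells, S genes in blue and G2/M genes in red; filled points passed an adjusted p of 0.05, and members without a UMI in one state are not drawn. Birc5 lies at 3.83 in the left and 3.50 in the right panel, and Pcna, Mcm4 and Mcm7 lie near 0 in both.

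The count of members that rose depended on the settings. It was 22 with no filter on low counts, 10 with cells of at least 1000 genes, 5 by DESeq2, and 1 of the 11 that could be tested after thinning to 1000 UMIs. Without the replicate block 0 passed in edgeR, and 17 had an unadjusted p under 0.05.

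Th1-like cells gave a similar list against the same naive-like cells, so the comparisons share those cells and their values are set side by side. In Th1-like cells 15 members rose and 0 fell (0 also at an unadjusted p under 0.05 and by DESeq2), 7 S and 8 G2/M genes, where 3.96% of all genes tested rose. The median log2 difference was 1.88 over the tested members (1.74 with bounds), against -0.01 over all genes. Birc5 had 29.4 and 45.0 CPM (log2 3.50 ± 0.60, edgeR adjusted p = 0.000419), Top2a 39.7 and 51.6 CPM (2.24 ± 0.45; 0.00197) and Ccnb2 25.2 and 19.9 CPM against 3.06 and 1.38 CPM (edgeR adjusted p = 0.0422; pooled log2 3.35, 1.77 to 5.64). Each Th1-like value lay above each naive-like value for these genes.

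Mcm2 rose in Th1-like cells, with 20.2 and 42.1 against 4.60 and 11.05 CPM (log2 1.81 ± 0.42, edgeR adjusted p = 0.00685), and Rrm1 had 28.6 and 51.0 CPM (1.39 ± 0.30; 0.00379). The remaining members that rose were Mcm5, Mcm6, Rrm2, Tyms, Pclaf, Aurkb, Mki67, Ube2c, Cdk1 and Cenpf, with log2 differences from 0.77 for Mcm6 to 3.86 for Aurkb. Cenpa had 47.7 and 61.0 CPM in Th1-like against 46.0 and 52.5 CPM in naive-like cells (log2 -0.02, edgeR adjusted p = 0.996). The count was 21 with no filter on low counts, 9 with cells of at least 1000 genes, 3 by DESeq2, 2 of 11 after thinning, and 0 in edgeR without the replicate block, where 18 had an unadjusted p under 0.05.

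Treg-like and Th1-like cells differed in 1 member, where 3.8% of all genes tested were higher in Treg-like cells. Cenpa had 90.6 and 100.3 CPM in Treg-like and 47.7 and 61.0 CPM in Th1-like cells, a log2 difference of 0.78 ± 0.21 (edgeR adjusted p = 0.0261), and the groups did not overlap. Of the other members, 0 passed, and the next were Ube2c (log2 0.84, edgeR adjusted p = 0.128), Hmmr (1.004; 0.212) and Mcm2 (-0.55; 0.249). At an unadjusted p under 0.05, 3 members were higher and 1 lower, and DESeq2 gave 0 calls in either direction and 0 at an unadjusted p under 0.05. The median over the tested members was 0.05. The Cenpa call was lost after thinning, in cells of at least 1000 genes and without the replicate block.

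Cell-cycle genes outside the 40 were read from 4 further lists. Against naive-like cells, 1 of 16 tested further S-phase genes rose in Treg-like cells (Slbp, the histone mRNA binding protein, with 155 and 144 against 67.4 and 75.9 CPM; log2 0.85, edgeR adjusted p = 0.00151). Of further mitosis genes, 5 of 16 tested rose, among them Smc2 of condensin (1.13; 0.00487), Cdca8 (2.44; 0.00805) and Spc24 of the kinetochore (3.19; 0.0115). Of genes of G1 and E2F, 1 of 9 rose (Cdk6; 0.98; 0.0467), and of inhibitors of the cycle 1 of 10 (Cdkn1a; 1.25; 0.0123). Over all genes tested 3.86% rose, so a single call in such a short list says little about the list. Cdkn1a, which encodes p21, had 154 and 19.1 CPM in Treg-like and 49.0 and 9.66 CPM in naive-like cells, so its level differed more between replicates than between the states.

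In Th1-like cells the same lists gave 1 gene of 16 higher among S-phase genes (Slbp; log2 1.01, edgeR adjusted p = 0.000209) and 5 higher and 1 lower of 16 mitosis genes. Over all genes tested, 3.96% rose and 4.97% fell. Racgap1, of the central spindle, was 1.75 higher (edgeR adjusted p = 0.00412) and Smc4 of condensin fell by 0.83 (0.00243). The cyclin D genes Ccnd2 (0.82, edgeR adjusted p = 5.12e-05) and Ccnd3 (0.84; 0.000178) rose, and the inhibitors Cdkn1b, which encodes p27, and Btg1 fell by 0.70 (0.000419) and 0.45 (0.0101), where 4.97% of all genes tested fell. Between Treg-like and Th1-like cells, Ccnd3 fell by 0.88 (edgeR adjusted p = 3.54e-05) and Ccnd2 by 0.46 (0.00675), while Cdkn1a rose by 1.37 (0.000436) and Cdkn1b by 0.41 (0.0279). Of 9 tested G1 and E2F genes 2 fell between these states, where 2.13% of all genes fell, and of 10 inhibitors 2 rose, where 3.8% rose.

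In the hippocampus, cell classes were set by 2 or more UMIs of 1 of 5 marker genes that are no members. Cells that met this for both Riiad1 and Aqp4 alone were put in the Riiad1 class, and other cells with more than 1 marker were called mixed. Igfbpl1, a gene of neural progenitors and neuroblasts, marked the class with the most cell-cycle RNA: 90 of 190 cells of the DTR-negative library (47.4%; 40.1 to 54.7) and 48 of 139 cells of the DTR-positive library (34.5%; 26.7 to 43.1) held 3 or more members. Cells with Pdgfra, the growth factor receptor of oligodendrocyte precursors, gave 14.1% (98 of 697; 11.6 to 16.9) and 10.3% (86 of 838; 8.29 to 12.5). Cells with Riiad1, read as a neural stem cell gene, gave 3 of 31 cells and 1 of 24. Astrocyte-like cells with Aqp4 gave 1.84% (12 of 652) and 0.581% (4 of 688), and endothelial-like cells with Cldn5 1.63% (8 of 491) and 1.67% (6 of 360). Their intervals keep Igfbpl1 above Pdgfra cells, and Pdgfra above Aqp4 and Cldn5 cells, in both libraries.

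The classes were checked against marker lists. At least 3 of 6 precursor genes were found in 96.3% and 97.6% of Pdgfra cells, and 3 or more of 6 neuroblast genes in 97.9% and 100% of Igfbpl1 cells. Astrocyte genes were found in 100% and 99.9% of Aqp4 cells, endothelial genes in 98.8% and 98.6% of Cldn5 cells and stem cell genes in 90.3% and 83.3% of Riiad1 cells. Riiad1 cells also held 3 or more astrocyte genes in 93.5% and 100% of cells, at summed levels of 13138 and 14198 CPM against 4158 and 3714 CPM for the stem cell genes. Choroid plexus genes summed to 8865 and 21.6 CPM in Riiad1 cells, with 3 or more of them in 3.23% of the DTR-negative cells. Median depth was 6945 and 5764 UMIs in Igfbpl1, 5244 and 4421 in Pdgfra, 4453 and 3612 in Aqp4 and 2016 and 1626 in Cldn5 cells. At 2000 UMIs per cell, Igfbpl1 cells gave 24.5% (45 of 184) and 24.3% (33 of 136) and Pdgfra cells 6.19% (41 of 662) and 3.64% (29 of 796). The order of these 2 classes was the same at equal depth.

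Most mitotic cells lay in 2 classes or carried no class marker. At least 3 G2/M genes were detected in 36 and 20 Igfbpl1 cells (18.9% and 14.4%) and in 21 and 13 Pdgfra cells (3.01% and 1.55%). Igfbpl1 cells were 2.77% and 2.44% of all cells and 48.0% and 40.8% of the cells with 3 or more G2/M genes, and Pdgfra cells were 10.2% and 14.7% of all cells and 28.0% and 26.5% of those. Aqp4, Cldn5 and Riiad1 cells had 0 such cells in both libraries, which allows shares of up to 0.460% and 0.436%, 0.611% and 0.833%, and 9.68% and 12.5%. The Riiad1 class is too small to show a mitotic share like that of Pdgfra cells.

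**Figure D3:**
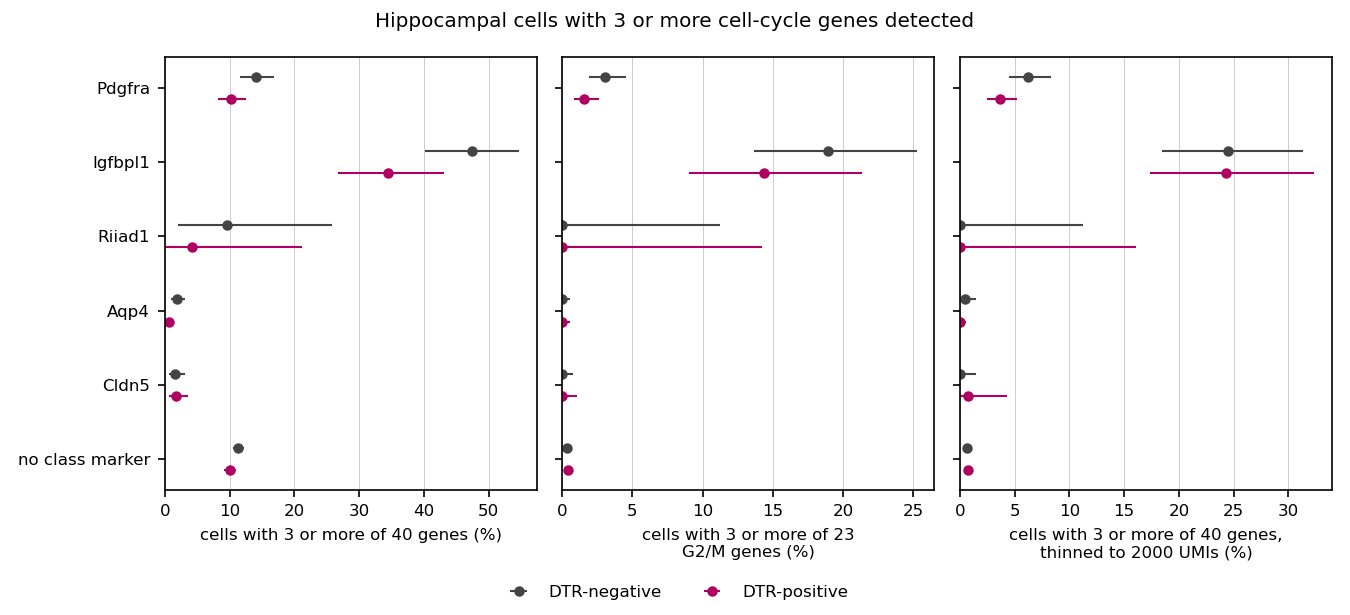
Share of hippocampal cells (%) with 3 or more of the 40 genes (left), with 3 or more of the 23 G2/M genes (middle) and with 3 or more of the 40 genes after thinning each cell to 2000 UMIs (right), by marker class. Points are the DTR-negative and DTR-positive libraries and bars exact binomial 95% intervals. Igfbpl1 cells lie at 47.4% and 34.5% in the left panel, and cells without a class marker fall from 11.3% and 10.0% to 0.691% and 0.718% in the right one.

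Cells without a class marker show how depth enters this count. They gave 11.3% (543 of 4785) and 10.0% (364 of 3631) and made up 71.7% and 71.2% of all hippocampal cells with 3 or more members, at a median depth of 6877 and 5246 UMIs. At 2000 UMIs per cell their share was 0.691% and 0.718%, and 0.334% and 0.386% held 3 or more G2/M genes. Of their cells with 3 or more members, 91.7% and 93.7% held 3 or more markers of mature oligodendrocytes, and Pcna was found in 86.6% and 79.9%, Mcm7 in 47.9% and 47.3% and Rrm1 in 46.8% and 49.7%. Their S to G2/M ratio was 5.41 and 4.06, against 8.66 and 7.52 in Aqp4 and 6.14 and 6.35 in Cldn5 cells. Igfbpl1 cells had 1.31 and 0.937 and Pdgfra cells 0.952 and 2.29, and so lay below the Aqp4, Cldn5 and unmarked cells.

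Single members were tested between classes over 13945 genes, with the DTR-negative and DTR-positive libraries as the 2 blocks, so the genotypes serve as replicates. In Igfbpl1 against Aqp4 cells, 40 of 40 members rose, where 25.9% of all genes tested rose. The median log2 difference was 4.92 (4.69 with bounds for genes at 0), 3.57 over S and 6.62 over G2/M genes (5.33 with bounds), against -0.03 over all genes. Aqp4 cells were set as the reference with earlier results of these data known and had no UMI of 8 members, so the direction of these counts is in part fixed by that choice. The comparison measures RNA per class, in which more dividing cells and more RNA per cell cannot be told apart.

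Among S genes of Igfbpl1 cells, Pclaf had 319.6 CPM in the DTR-negative and 171 CPM in the DTR-positive library, against 5.35 and 0 CPM in Aqp4 cells (log2 6.04 ± 0.46, edgeR adjusted p = 9.05e-11). Mcm7 had 175 and 171 against 10.7 and 11.2 CPM (3.57 ± 0.17; 2.13e-14) and Mcm6 109 and 105 against 5.01 and 2.71 CPM (4.34 ± 0.25; 9.2e-13). Pcna had 159 and 129 against 30.1 and 16.2 CPM (2.21; 1.94e-10). All Igfbpl1 values of these genes lay above all Aqp4 values. The smallest differences were those of Mcm4, with 24.5 and 47.9 against 9.69 and 10.1 CPM (1.35 ± 0.31, edgeR adjusted p = 0.000752), and of Rrm1 (1.46; 3.72e-06).

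Genes that license and fire origins rose as well: Cdc6, the MCM loader, by a log2 of 4.05, Cdc45 by 3.57 and Gins2 by 1.87, with edgeR adjusted p from 9.96e-05 to 8.12e-06. The E cyclins, which drive entry into S phase, rose by 3.25 for Ccne1 (16.8 and 14.4 against 1.67 and 0.773 CPM) and by 3.61 for Ccne2 (30.1 and 14.4 against 2.01 and 0.773 CPM). Mcm2 rose by 3.87, Mcm3 by 2.64, Mcm5 by 6.19, Uhrf1 by 4.68, Rrm2 by 3.97 and Tyms by 2.92. Mcm5 had 2 UMIs in Aqp4 cells, with a pooled log2 of 6.68 (4.78 to 9.75).

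Of the G2/M genes in Igfbpl1 cells, Top2a had 139.9 and 119 CPM against 0.669 and 0 CPM in Aqp4 cells (log2 8.03 ± 0.53, edgeR adjusted p = 1.5e-11). That rested on 2 UMIs in Aqp4 cells, with a pooled log2 of 8.52 (6.66 to 11.6). Against Aqp4 cells without a UMI, the bounds were at least 212-fold higher for Ube2c, 63.2-fold for Hmmr, 62.4-fold for Ccnb1, 46.8-fold for Cdk1, 40.2-fold for Ccnb2, 28.7-fold for Bub1, 24.6-fold for Aurkb and 18.1-fold for Plk1. Tpx2 (63.6 and 87.4 against 1.67 and 1.55 CPM; log2 5.08) and Cenpa (82.5 and 103 against 1.34 and 2.32 CPM; 5.23) had more UMIs in Aqp4 cells and so a firmer ratio.

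In Pdgfra against Aqp4 cells, 31 members rose, 11 S and 20 G2/M genes, where 28.5% of all genes tested rose, and 1 fell, where 26.2% fell. The median log2 difference was 2.42 (2.21 with bounds), 0.94 over S and 4.73 over G2/M genes (2.88 with bounds), against 0.06 over all genes. Top2a had 25.4 and 24.0 CPM against 0.669 and 0 CPM (pooled log2 6.11, 4.23 to 9.16, edgeR adjusted p = 1.11e-06), and Birc5 12.3 and 10.9 against 0.334 and 0 CPM (6.02, 3.50 to 11.3; 2.6e-05). Cenpf had 46.3 and 13.8 against 0.669 and 0 CPM (6.38, 4.51 to 9.43; 2.11e-06) and Mki67 17.4 and 13.3 against 0.669 and 0 CPM (5.42, 3.53 to 8.48; 3.36e-06). The 2 Pdgfra values were close for Top2a, Birc5 and Mki67 and far apart for Cenpf.

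Ube2c was at least 24.0-fold, Hmmr 12.3-fold, Ccnb2 10.3-fold, Ccnb1 9.08-fold, Cdk1 7.36-fold, Bub1 4.42-fold, Plk1 3.93-fold and Aurkb 2.94-fold higher than in Aqp4 cells, which had no UMI of them. Among S genes of Pdgfra cells, Mcm5 had 8.56 and 14.1 against 0.669 and 0 CPM (edgeR adjusted p = 3.93e-05; pooled log2 4.98, 3.09 to 8.05), Mcm7 46.3 and 50.03 against 10.7 and 11.2 CPM (log2 1.51 ± 0.18; 1.88e-07) and Mcm6 17.9 and 20.8 against 5.01 and 2.71 CPM (1.67; 6.13e-05). Mcm2, Mcm3, Mcm4, Rrm1, Tyms, Pclaf, Uhrf1 and Ccne2 rose by 0.64 (Rrm1) to 2.38 (Mcm2). The median difference was thus larger over the G2/M than over the S genes in both progenitor classes.

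Gins2 was the member that fell in Pdgfra cells (log2 -0.84 ± 0.33, edgeR adjusted p = 0.0339). Its CPM were 5.08 and 7.30 in Pdgfra and 7.35 and 6.96 in Aqp4 cells, so the groups overlapped, and the pooled CPM ratio was -0.21 (-0.85 to 0.44). The scaling of the fit moved this comparison by -0.62 relative to CPM, and the call was lost by DESeq2, with 3 marker UMIs, with at least 1000 genes per cell, without the filter on low counts and after thinning. The 8 members that did not pass were Pcna, Cdc6, Cdc45, Ccne1, Rrm2, Aurka, Bub1b and Kif20a, of which Pcna had 47.3 and 46.4 against 30.1 and 16.2 CPM (log2 0.39, edgeR adjusted p = 0.0692). After thinning to 2000 UMIs 18 members passed of the 31 that could be tested.

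Few members passed in the other classes, although the G2/M genes summed to 24.8 and 27.9 CPM in Cldn5 and 40.6 and 32.4 CPM in Riiad1 cells, against 12.7 and 9.66 CPM in Aqp4 cells. In Cldn5 cells 4 members rose, where 25.6% of all genes rose, and 1 fell, where 26.9% fell. Pcna had 62.4 and 68.4 CPM (log2 1.28 ± 0.21, edgeR adjusted p = 1.97e-05), Mcm6 14.5 and 12.6 CPM (1.63; 0.0026), Cenpa 12.8 and 9.77 CPM (2.49; 0.0128) and Rrm1 21.4 and 27.9 CPM (0.73; 0.0242, but -0.11 after thinning). Gins2 had 1.71 and 2.79 CPM (-1.91; 0.0129), and 13 members had no UMI in Cldn5 cells. In Riiad1 cells Mcm6 rose, with 40.6 and 21.6 CPM (2.54 ± 0.69, edgeR adjusted p = 0.0226), where 1.8% of all genes rose, and 24 members had no UMI in the 31 and 24 cells. After thinning 0 members passed in Riiad1 cells (0 at an unadjusted p under 0.05), and with 1 marker UMI as the rule 7 did.

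**Figure D4:**
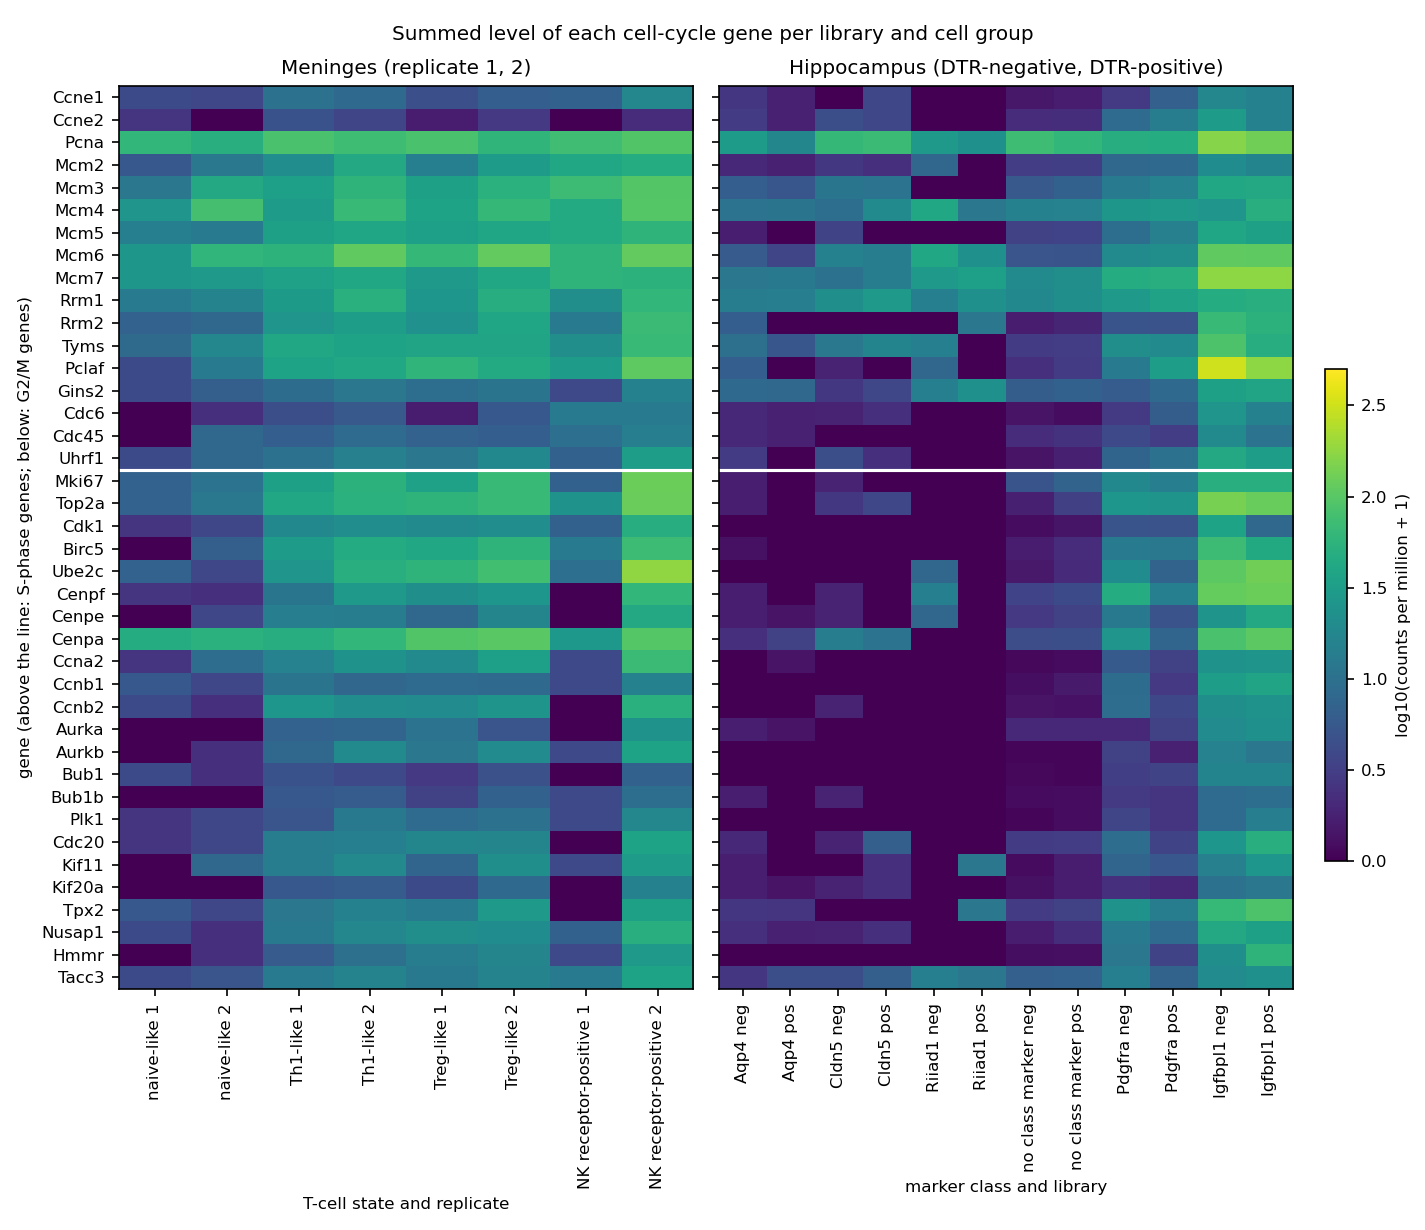
Summed level of each of the 40 members, as log10 of CPM plus 1, in 4 T-cell states by replicate (left) and 6 hippocampal classes by library (right). A row is to be read along its length and not against other rows. Igfbpl1 cells are the brightest in most hippocampal rows, and most G2/M rows below the line are dark in Aqp4, Cldn5 and Riiad1 cells. Exceptions include Cenpa in Cldn5 cells (12.8 and 9.77 CPM) and Tacc3 in Riiad1 cells (13.5 and 10.8 CPM). Over S and G2/M genes together, 24 members are at 0 in Riiad1 cells.

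The further lists were read in the same fits. In Igfbpl1 cells 19 of 19 tested S-phase genes rose, and of 30 mitosis genes 25 rose and 1 fell, where 25.9% of all genes rose and 28.8% fell. In Pdgfra cells 8 of 19 S-phase genes rose, and of 30 mitosis genes 18 rose and 5 fell, where 28.5% of all genes rose and 26.2% fell. Pttg1, the securin gene, fell in Pdgfra cells (log2 -2.34, edgeR adjusted p = 2.67e-12) while Racgap1 rose by 5.68 and Cks2, which binds cyclin-dependent kinases, by 4.04. The G1 genes differed by class: Ccnd1, cyclin D1, had 1072 and 984 CPM in Pdgfra against 4.68 and 3.09 CPM in Aqp4 cells (7.40; 9.39e-17). In Igfbpl1 cells the leading G1 gene was Cdk6, with 224 and 232 against 2.67 and 1.16 CPM (6.42; 6.72e-16). Ccnd2 followed, with 1071 and 1591 against 64.5 and 77.3 CPM (3.79). Of the inhibitor genes with the smallest p, Cdkn2c (log2 2.72), Btg2 (2.37) and Cdkn1b (1.26) rose in Igfbpl1 cells. In Pdgfra cells Cdkn1c rose (5.46), while Rb1 (-2.08) and Btg1 (-1.26) fell. In Cldn5 cells Cdkn1a had 594 and 840 against 3.01 and 5.80 CPM (7.20), and Cdkn1c (7.44) and Btg2 (3.78) rose too.

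The comparison of DTR-positive with DTR-negative animals asks what follows in the hippocampus when Treg cells are depleted. With 1 library of 2 pooled mice per genotype it has no test: the intervals cover counting error only, UMIs of 1 cell are not independent, and genotype and library cannot be told apart. Over all cells the 40 genes summed to 259.5 CPM in the DTR-negative and 254 CPM in the DTR-positive library, a log2 ratio of -0.03 (exact 95% interval -0.07 to 0.01). In the sums of Pdgfra and Igfbpl1 cells the S and G2/M genes went different ways. In Aqp4 cells both were lower in the DTR-positive library, at -0.60 (-0.86 to -0.33) for S and -0.39 (-1.18 to 0.37) for G2/M genes. The S ratio of Aqp4 cells was -0.68 after thinning and -0.36 without the 5 cells richest in the 40 genes. In Cldn5 cells the ratios were 0.22 (-0.12 to 0.56) for S and 0.17 (-0.73 to 1.04) for G2/M genes.

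In Pdgfra cells the 23 G2/M genes summed to 268 CPM in the DTR-negative and 136 CPM in the DTR-positive library (log2 -0.98; -1.13 to -0.82), and the 17 S genes to 256 and 312 CPM (0.29; 0.16 to 0.41). Of 17 G2/M genes with 20 or more UMIs, 17 were lower in the DTR-positive library and 10 were lower by over 2-fold, where 1.61% of 13009 genes were. Of 16 S genes, 13 were higher and 3 by over 2-fold, where 1.21% of genes were. Further lists lay the same way, with 24 of 26 mitosis genes lower and 14 of 18 S-phase genes higher. They were read in the same cells of the same libraries, so they are no separate evidence. Over all 13009 genes the median was 0.04, and 44.7% were lower. Aurka, Aurkb, Bub1, Bub1b, Plk1, Kif20a and Cdc45 had fewer than 20 UMIs and were not counted.

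Of the genes past 2-fold, Cenpf of the kinetochore and Cenpa of the centromere had the most UMIs. Cenpf had 173 UMIs (46.3 CPM) in the DTR-negative and 53 (13.8 CPM) in the DTR-positive library (log2 -1.74; -2.22 to -1.29) and Cenpa 92 (24.6 CPM) and 25 (6.51 CPM) (-1.92; -2.62 to -1.27). Genes of the transition through mitosis were lower as well, Ube2c with 19.8 and 6.25 CPM (-1.66), Ccnb1 with 30 and 7 UMIs (-2.14; -3.57 to -0.92), Hmmr with 40 and 10 UMIs (-2.04; -3.20 to -1.01) and Cdc20 with 31 and 10 UMIs (-1.67). Cenpe, Ccnb2, Tacc3 and Ccna2 were the remaining genes past 2-fold, at -1.52, -1.53, -1.12 and -1.04. Tpx2 (-0.84), Nusap1 (-0.65) and Kif11 (-0.59) were lower by less. The 4 G2/M members least apart were Top2a with 95 and 92 UMIs (-0.08; -0.51 to 0.35), Cdk1 with 15 and 15 (-0.04), Birc5 with 46 and 42 (-0.17) and Mki67 with 65 and 51 (-0.39; -0.95 to 0.16).

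Among S genes of Pdgfra cells, Pclaf had 44 UMIs (11.8 CPM) in the DTR-negative and 120 (31.3 CPM) in the DTR-positive library (log2 1.41; 0.90 to 1.94). The other 2 past 2-fold were Ccne1 with 7 and 22 UMIs (1.61; 0.34 to 3.09) and Cdc6 with 7 and 20 (1.48; 0.18 to 2.96). Mcm5 had 32 and 54 UMIs (0.72; 0.06 to 1.40), while Pcna with 177 and 178 and Mcm7 with 173 and 192 UMIs lay close to each other. Few cells carried these sums: the 5 cells richest in each group of genes held 59.96% and 56.8% of the G2/M and 15.2% and 26.3% of the S UMIs in the 2 libraries. Without the 5 cells per library richest in the 40 genes the S ratio was -0.06 (-0.20 to 0.07) and the G2/M ratio -0.77 (-1.01 to -0.54), and after thinning they were -0.15 (-0.37 to 0.06) and -1.33.

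The share of Pdgfra cells with 3 or more G2/M genes, 3.01% and 1.55%, gave a log2 ratio of -0.96 (-2.08 to 0.11), so at 21 and 13 cells the difference in the number of mitotic cells was within counting error. The share with 3 or more of the 40 genes gave -0.45 (-0.89 to -0.02), and -0.77 at equal depth.

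In Igfbpl1 cells the summed ratios had the opposite signs. S genes summed to 1247 and 987 CPM (log2 -0.34; -0.46 to -0.22), with 13 of 17 lower, and G2/M genes to 953 and 1053 CPM (0.14; 0.02 to 0.27), with 17 of the 22 counted higher. Of all 9080 genes counted in this class, 46.0% were lower. The 5 cells richest in G2/M genes held 37.1% and 64.4% of the G2/M UMIs. The G2/M ratio was -0.63 without those cells, -0.73 without the 5 cells richest in the 40 genes and -0.29 after thinning. The S ratio was -0.28 without the 5 cells richest in the 40 genes and -0.39 after thinning. The share of cells with 3 or more members, 47.4% and 34.5%, gave -0.46 (-0.99 to 0.07), and -0.01 at equal depth.

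Past 2-fold in Igfbpl1 cells, Hmmr was higher (21.0 and 56.3 CPM; log2 1.42; 0.73 to 2.14), where 2.35% of 9080 genes were, and Cdk1 (51 and 6 UMIs; -2.31; -3.82 to -1.09) and Ccne2 (43 and 12 UMIs; -1.06; -2.12 to -0.12) were lower, where 4.81% were. Pclaf had 319.6 and 171 CPM (-0.90; -1.18 to -0.63) and Tyms was lower by a like amount (-0.89), while Mcm4 (0.97), Cdc20 (0.96) and Cenpe (0.82) were higher. Pclaf thus lay higher in DTR-positive Pdgfra cells and lower in DTR-positive Igfbpl1 cells, and the difference between the classes was not tested.

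**Figure D5:**
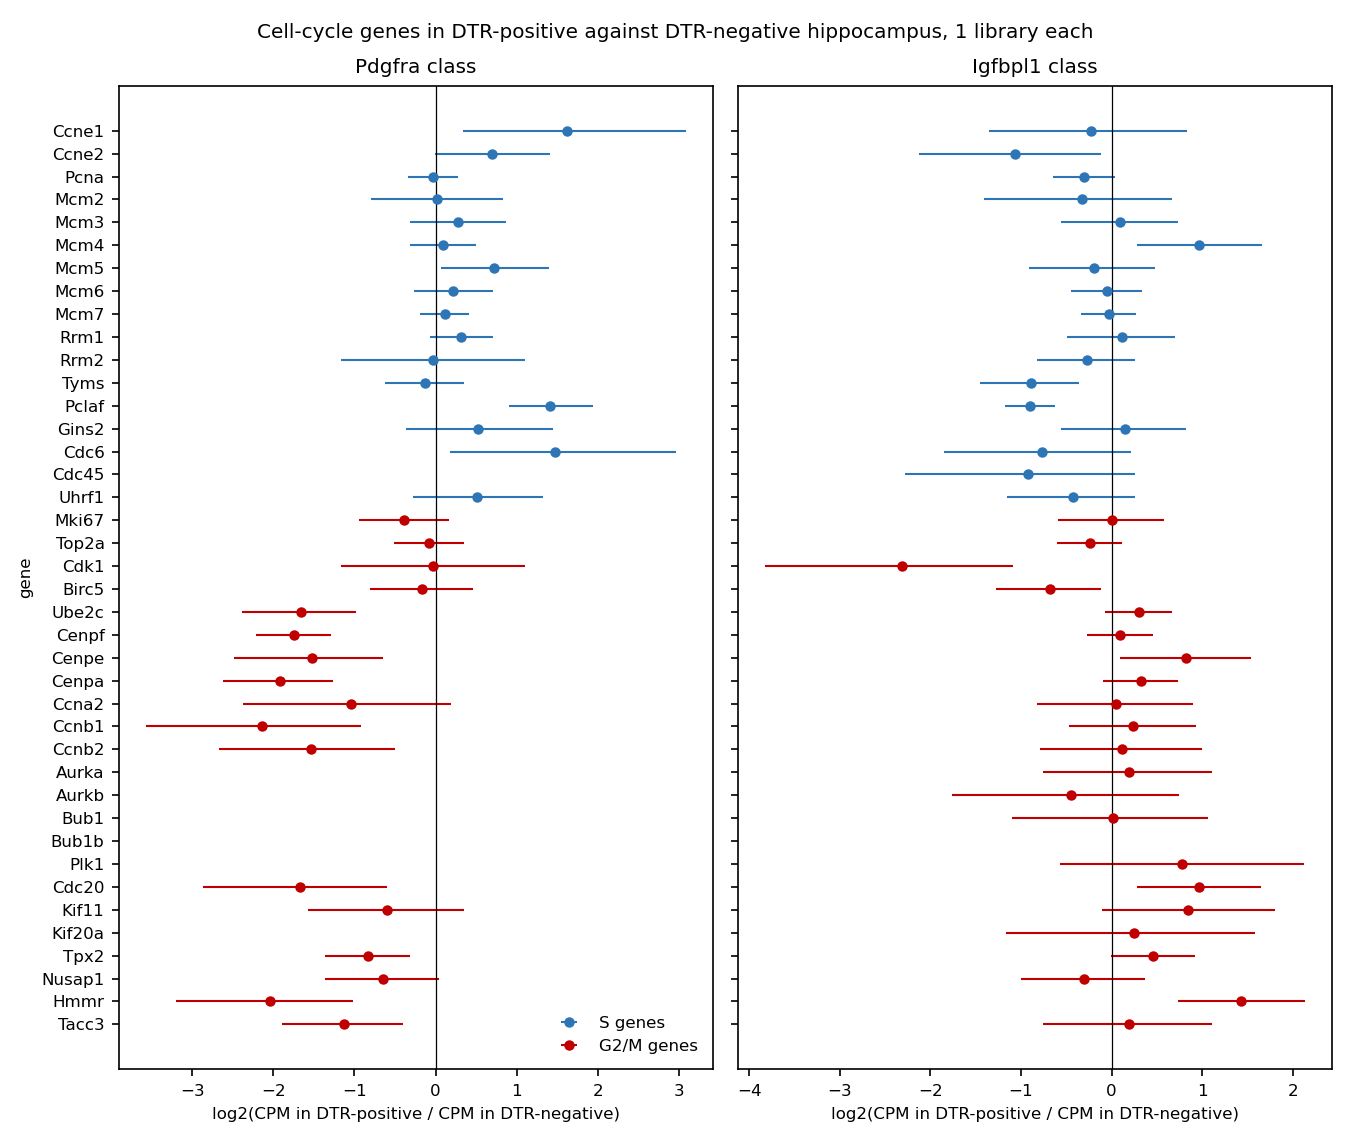
Log2 ratio of CPM in the DTR-positive to the DTR-negative library for members with 20 or more UMIs, in Pdgfra (left) and Igfbpl1 cells (right), S genes in blue and G2/M genes in red; bars are exact 95% intervals for counting error, 1 library each. All 17 red points of the left panel lie below 0, from -0.04 for Cdk1 to -2.14 for Ccnb1, and in the right panel Cdk1 lies at -2.31 and Hmmr at 1.42.

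Cells without a class marker had S sums of 148 and 147 CPM (log2 -0.01) and G2/M sums of 27.4 and 36.2 CPM (0.40; 0.27 to 0.53; 0.25 without the 5 cells richest in the 40 genes). Transcripts of the choroid plexus differed between the libraries, with summed levels of 6340 CPM in the DTR-negative and 1730 CPM in the DTR-positive library over all cells, 341 and 245 CPM in Pdgfra cells and 1699 and 31.1 CPM in Igfbpl1 cells. Their part in the differences of the members was not tested.

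Genes outside the list that followed it most closely were ranked by the ratio of CPM in cells with 3 or more members to other cells, by the lower ratio of the 2 libraries. In the meninges Stmn1, the microtubule regulator stathmin, led with 143.9 and 154.9 CPM against 11.9 and 6.74 CPM (ratios of 12.1 and 22.99). It was followed by H2ac8, a histone H2A gene, Nrm of the nuclear envelope, Hmgb2, a chromatin protein (2.60 and 3.41), and Ezh2, the Polycomb methyltransferase. In the hippocampus 4 haemoglobin genes came first, Hbb-bt with 187.6 and 109.8 against 3.02 and 3.02 CPM and then Hba-a2, Hba-a1 and Hbb-bs with lower ratios of 7.72, 6.93 and 6.55. Hmgb2 came next with 154.4 and 137.0 against 31.8 and 34.1 CPM. Haemoglobin marks red blood cell lineage cells, for which no class was set, and their part in the unmarked cells with members was not tested.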

How the data were processed

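The authors deposited raw UMI counts per gene and barcode for each library, and counts per hashtag and lists of T-cell receptor contigs for the meninges. The submitters' processing notes name Cell Ranger 6.1.0, Seurat and the build mm10, while per the file headers the counts of meningeal replicates 1 and 2 came from versions 4.0.0 and 6.0.0 and those of the hippocampus from 6.1.0. By the labels each meningeal sample carries 1 hashtag. They give both the same sequence, which is not that of hashtag 7 of replicate 1 in the deposited table, so hashtags were taken by name, and each value of replicate 1 rests on that. A barcode was taken for it at 10 or more hashtag counts and 2 times the next hashtag, because cells of other samples share the library.

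Cells needed 500 genes and under 10% (meninges) or 15% (hippocampus) mitochondrial UMIs. Meningeal cells with 2 or more B-cell or myeloid markers were left out (31 and 72 cells). Hippocampal doublets were marked by Scrublet (Scanpy 1.11.5, Python 3.11.15). A Foxp3 UMI set Treg-like cells, and the states of other cells were set by markers. The Treg-like, naive-like, Th1-like and Tfh-like states needed at least 2 of 6 genes, more than for any other of these states. Treg-like cells thus include cells without a Foxp3 UMI that met the Treg markers. Hippocampal classes needed 2 UMIs of 1 marker, except that cells with both Riiad1 and Aqp4 alone went to the Riiad1 class. Other cells with more than 1 marker were called mixed.

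Counts were summed per group and library, with at least 20 cells per sum, and tested with edgeR 4.0.16 (R 4.3.3; TMM scaling, filter on low counts, quasi-likelihood test, Benjamini-Hochberg over all genes). DESeq2 1.42.0 was an alternative. TMM scaling moved fitted log2 ratios relative to CPM ratios by -0.21 (Treg-like) and -0.17 (Th1-like against naive-like), and by -0.62, -0.42, -0.54 and -0.18 for Pdgfra, Igfbpl1, Riiad1 and Cldn5 against Aqp4. The library is the block because the states of 1 library come from the same mice. In the meninges the deviations of sums from 1 library correlated at 0.282 to 0.861 over 15 pairs, and in the hippocampus at -0.01 to 0.19. DTR-positive and DTR-negative libraries were compared by CPM ratios with exact conditional binomial intervals, among genes with 20 or more UMIs. A fold against a group at 0 was taken against a floor of 3 counts over both libraries. Binomial intervals came from scipy 1.17.1. The edgeR step was checked on simulated counts.

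The members and all lists were chosen with earlier results of these data known. Each member is named, with more values for members past the threshold with the 8 largest changes per comparison and any past it in the other direction. Genes of the further lists were named from the 3 smallest p per list, but not for every list and comparison. Other members were added for their roles.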

Additional observations from a re-analysis of the deposited data

Results flagged for a closer look

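In the comparison of DTR-positive with DTR-negative hippocampus, the 2 progenitor classes moved in opposite directions when all analysed cells were summed at full depth. The summed S genes were higher in DTR-positive Pdgfra cells (log2 0.29) and lower in DTR-positive Igfbpl1 cells (-0.34). The summed G2/M genes were lower in Pdgfra cells (-0.98) and higher in Igfbpl1 cells (0.14). With 1 library per genotype, the difference between the classes was not tested. The S value of Pdgfra cells and the G2/M value of Igfbpl1 cells changed sign when the 5 cells richest in the 40 genes were left out of each library.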

How the results depend on the processing

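With 2 libraries per comparison, and for the genotypes 1 library per group, depth and few cells limit these values. The members called in Treg-like against naive-like cells were 16 as reported, 1 after thinning, 10 with at least 1000 genes per cell, 5 by DESeq2 and 0 with no replicate block. For Th1-like cells they were 15, and 2, 9, 3 and 0 under the same settings. For Treg-like against Th1-like cells the 1 call became 0 under each of these, and 2 with no filter on low counts. The fits with the block paired the sums of a library, and in the hippocampus the fits with no replicate block gave the same counts, 32, 40, 1 and 5. Thinning to 2000 UMIs gave 18 for Pdgfra and 0 for Riiad1 cells, and 1 marker UMI gave 7 for Riiad1 cells. With 3 marker UMIs Riiad1 cells gave no value, being under 20 cells. With 1 library left out, the medians were 1.61 to 1.93 (Treg-like), 1.59 to 1.65 (Th1-like), 0.051 to 0.12 (Treg-like against Th1-like), 2.24 to 2.31 (Pdgfra), 3.92 to 4.72 (Igfbpl1), -0.57 to 0 (Riiad1) and 0 in both (Cldn5). Of 302 values of the members named from the tests under alternatives, 239 kept direction and side of the threshold, 62 lost the call and 1 turned, Rrm1 in Cldn5 cells after thinning (-0.11). The meningeal share of 14.1% was 31.9% with 2 or more members, 4.28% with 5 or more, 21.2% with at least 1000 genes and 3.63% after thinning, and 11.4% to 16.8% with 1 replicate left out. For the genotypes, the ratio over all cells was -0.13 after thinning and -0.094 without the 5 cells richest in members. In Pdgfra cells these settings gave -0.15 and -0.065 for S and -1.33 and -0.77 for G2/M genes. In Igfbpl1 cells they gave -0.29 and -0.73 for G2/M genes, which were -0.63 without the 5 cells richest in G2/M UMIs and 0.30 with doublets kept, where S genes gave -0.21. The causes were not tested. Limiting cells to exactly 1 beta chain, leaving out the cells richest in G2/M UMIs and counting cells with 1 or more members were chosen after seeing the data.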
